A study of Mus musculus with 12 samples.

Results

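Immunoglobulin genes were followed in 2 tissues, colon and urinary bladder, of mice with and without deletion of Yap1 and Wwtr1 in smooth muscle. The genes were chosen by name and by level: the name had to be that of a heavy (Ighv), kappa (Igkv) or lambda (Iglv) variable gene, of a heavy constant gene (Igha, Ighd, Ighe, Ighg, Ighm), of a kappa or lambda constant gene (Igkc, Iglc), or Jchain, and 3 or more of the 12 libraries had to hold 1 TPM or more of it. TPM is the abundance of a transcript divided by its length and scaled to the same total in each library. Of 54532 genes, 362 carried such a name and 192 reached the level. These 192 comprised 101 of 185 Ighv genes, 76 of 160 Igkv genes, 3 of 3 Iglv genes, 7 of 8 heavy constant genes (Ighe did not qualify), Igkc, 3 of 4 lambda constant genes (Iglc4 did not qualify), and Jchain. The third-highest TPM, on which the choice turned, was 1.09 in Ighv1-20, 1.09 in Igkv4-90, and 1.13 in Ighg3, just inside the limit, and 0.899 in Ighv1-36, 0.834 in Igkv4-77, and 0.827 in Ighv1-11, just outside it.

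The groups were Ctrl colon (mice 788, 786, and 787), Y/T KO colon (mice 759, 783, and 780), Ctrl bladder (mice 784, 785, and 788), and Y/T KO bladder (mice 782, 783, and 780), with 3 libraries in each and 1 mouse behind each library. Values of a group are given below in this order of mice, and mice 788, 783, and 780 gave both tissues. All mice were males aged 5 to 7 weeks, carried floxed Yap1 and Wwtr1 (the genes of YAP and TAZ, co-activators downstream of Hippo signaling), and received 1 mg of tamoxifen a day for 5 days, with tissue taken on day 7 after the first injection. Y/T KO mice also carried Myh11-CreERT2, a tamoxifen-inducible Cre driven by the smooth muscle myosin heavy chain promoter, whereas Ctrl mice were Cre-negative, so that the deletion is directed to smooth muscle.

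Antibodies are made of paired heavy and light chains. During B cell development 1 heavy variable gene and 1 light variable gene are joined to shorter segments in each cell, so that a B cell clone and the plasma cells derived from it use a single variable gene of each kind, and the mixture of variable genes in a tissue reflects which clones are there. The heavy constant gene sets the antibody class: Ighm encodes IgM, the class made first, and Igha encodes IgA, the class for which the plasma cells of the gut wall are known. The J chain, encoded by Jchain, holds together the polymers of IgM and IgA, and the receptor encoded by Pigr carries these polymers across epithelium.

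Library checks bear on the results that follow. The epithelial genes Vil1 and Cdx2 marked the 6 colon libraries and uroplakin Upk2 the 6 bladder libraries, although Muc2, a goblet cell gene, was listed at 0.029 to 0.918 TPM in colon. In 3 of the 6 bladder libraries (Ctrl 784 and Y/T KO 783 and 780) genes of the prostate were high: Sbp stood at 36341, 39648, and 27206 TPM in these, against 14.3, 35.3, and 19.3 TPM in Ctrl 785, Ctrl 788, and Y/T KO 782. Because 1 Ctrl and 2 Y/T KO libraries were affected, the tests that involve bladder were also run without these 3 libraries, and the result is given beside each immunoglobulin gene reported as called and for the gene lists. The sums and shares over the variable genes are given with all libraries, and the affected ones are named. Pancreatic Cpa1 was present in Ctrl colon (6.13, 0.851, and 13.1 TPM) and listed at 0 in the 3 Y/T KO colon libraries. Yap1 lay at 45.8 to 54.9 TPM in Ctrl and 41.3 to 47.0 TPM in Y/T KO colon, and at 98.6 to 110 TPM in Ctrl and 69.4 to 72.1 TPM in Y/T KO bladder. Wwtr1 did not separate the genotypes in either tissue (16.8 to 21.5 and 17.9 to 22.7 TPM in Ctrl and Y/T KO colon, 32.5 to 61.6 and 48.3 to 60.8 TPM in bladder). In whole tissue, fewer cells of a type and less RNA per cell cannot be told apart.

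Immunoglobulin transcripts were more abundant in colon than in bladder, and the class differed: colon held IgA transcripts and bladder held IgM transcripts. Together the 192 genes summed to 12722, 13111, and 12719 TPM for Ctrl colons and 12551, 9867, and 9159 TPM for Y/T KO colons. In bladder the sums were 2594, 8623, and 2556 TPM for Ctrl mice and 4027, 4725, and 5339 TPM for Y/T KO mice. By these sums no bladder library reached the level of a colon library, and Ctrl bladder 785 stood above the other bladders. Igkv4-51, which the selection leaves out, stood at 487 TPM in Ctrl bladder 785. The size of the gap between that library and Y/T KO colon 780 therefore depends on the selection. As a share of all transcripts, the genes took 1.29% ± 0.0225 (SD, n = 3) in Ctrl colon, 1.05% ± 0.179 in Y/T KO colon, 0.459% ± 0.349 in Ctrl bladder, and 0.470% ± 0.0656 in Y/T KO bladder.

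Igha, on chromosome 12 with the other heavy chain genes, reached 2579, 1613, and 2447 TPM for Ctrl colons and 2290, 1982, and 1468 TPM for Y/T KO colons. In bladder it was listed at 10.4, 13.2, and 16.8 TPM for Ctrl mice and 25.5, 41.8, and 81.1 TPM for Y/T KO mice. The lowest colon library therefore lay far above the highest bladder library, and on the log2 scale (TPM rescaled by size factors, plus 0.1) colon exceeded bladder by 6.65 (SE 0.27, limma, Benjamini-Hochberg adjusted p = 3.45e-09). Ighm had the opposite pattern, with 236, 292, and 139 TPM for Ctrl colons and 214, 23.2, and 131 TPM for Y/T KO colons against 564, 1917, and 535 TPM for Ctrl bladders and 881, 1061, and 1128 TPM for Y/T KO bladders. Here all 6 bladder libraries lay above all 6 colon libraries, a log2 difference of -2.49 (SE 0.53, limma, Benjamini-Hochberg adjusted p = 0.00219). Without the 3 bladder libraries with prostate genes, Ighm differed by -2.51 (limma, Benjamini-Hochberg adjusted p = 0.0305) and Igha by 6.97, also called.

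Of the summed heavy constant TPM, Igha made up 83.3% to 93.3% in Ctrl colon and 90.5% to 98.1% in Y/T KO colon, but 0.679% to 2.97% in Ctrl bladder and 2.80% to 6.68% in Y/T KO bladder. Ighm made up 94.8% to 99.0% in Ctrl bladder and 92.9% to 96.6% in Y/T KO bladder, against 5.28% to 15.1% in Ctrl colon and 1.15% to 8.45% in Y/T KO colon. The IgG and IgD genes were low in both tissues. Ighg1 was at 3.11 to 11.6 TPM in colon and at 0 to 0.338 TPM in bladder, with 4 bladder libraries at 0. It met the limit of the selection through colon alone, so no fold or test is given. Ighg2b was at 9.34 to 23.9 TPM in colon and 0.748 to 3.76 TPM in bladder (log2 difference 2.91, SE 0.35, limma, Benjamini-Hochberg adjusted p = 1.75e-05), and the difference was 2.89 without the 3 libraries with prostate genes, also called. Ighg2c, which met the limit in fewer than 3 bladders, was at 1.36 to 3.89 TPM in colon and up to 3.998 TPM in bladder, with overlap. The tests of Ighd (log2 difference 0.47) and Ighg3 (0.86) did not pass (limma, Benjamini-Hochberg adjusted p = 0.315 and 0.342).

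**Figure D1:**
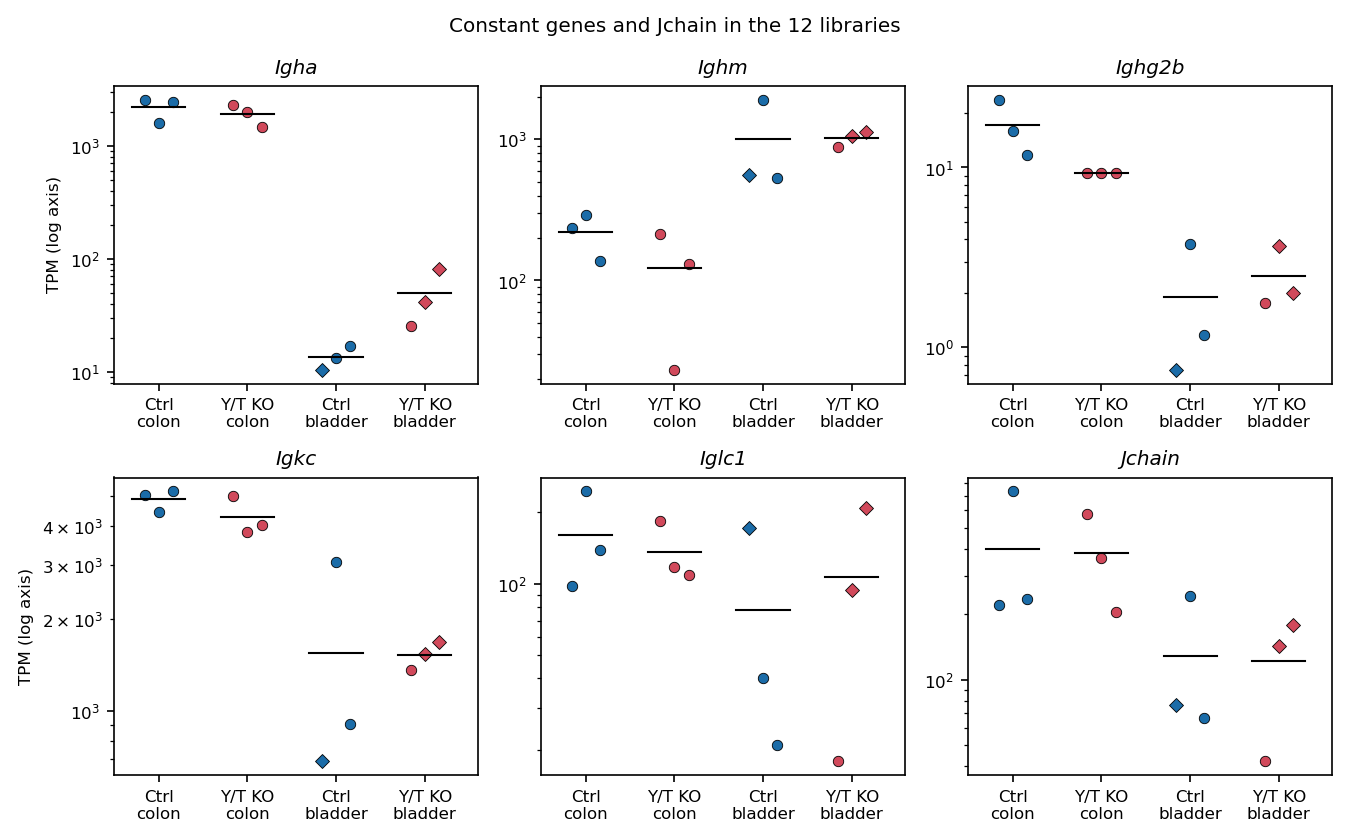
TPM on a logarithmic axis for Igha, Ighm, Ighg2b, Igkc, Iglc1, and Jchain in each library, by group, with lines at the group means and diamonds for the 3 bladder libraries with prostate genes. Igha lay at 1468 TPM or above in colon and at 81.1 TPM or below in bladder, whereas Ighm lay at 292 TPM or below in colon and at 535 TPM or above in bladder.

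Igkc, the kappa constant gene on chromosome 6, was the most abundant gene of the set, at 5052, 4458, and 5203 TPM for Ctrl colons and 5019, 3826, and 4039 TPM for Y/T KO colons. In bladder it stood at 686, 3050, and 906 TPM for Ctrl mice and 1363, 1530, and 1675 TPM for Y/T KO mice. Colon exceeded bladder by 2.01 on the log2 scale (SE 0.30, limma, Benjamini-Hochberg adjusted p = 0.000160) with no overlap, and by 1.89 without the 3 libraries with prostate genes, also called. The lambda constant genes, on chromosome 16, took 3.56% to 6.92% of the light constant TPM in colon and 2.33% to 24% in bladder. Iglc1 was at 98.1, 246, and 139 TPM for Ctrl colons, 183, 118, and 109 TPM for Y/T KO colons, 171, 40.0, and 20.9 TPM for Ctrl bladders, and 17.9, 94.6, and 209 TPM for Y/T KO bladders. The 3 highest bladder values of Iglc1 belong to the 3 libraries with prostate genes. With all libraries Iglc1 did not pass (log2 difference 1.48, limma, Benjamini-Hochberg adjusted p = 0.0788), and without those 3 it did (2.91, adjusted p = 0.000117). It also passed without Ctrl bladder 784 alone (adjusted p = 0.0185) and without Y/T KO bladder 780 alone (adjusted p = 0.0282).

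Of the other lambda genes, Iglc2 and Iglv3 were higher in colon, as was Jchain. Iglc2 differed by 1.32 (SE 0.27, limma, Benjamini-Hochberg adjusted p = 0.00132), and by 1.70 without the 3 libraries with prostate genes, also called. Iglc3 differed by 1.16 and did not pass with all libraries (adjusted p = 0.0991), but passed without Y/T KO colon 783 (0.0227) and without Y/T KO bladder 780 (0.0277). Among lambda variable genes, Iglv3 was higher in colon by 2.96 (adjusted p = 0.0146), and by 3.41 without the 3 libraries, also called, whereas Iglv1 (1.20, adjusted p = 0.0645) and Iglv2 (0.39, adjusted p = 0.759) did not pass. The mean rescaled TPM of Iglv3 was 0.793 in Ctrl bladder and 0.697 in Y/T KO bladder, so its size depends on the added 0.1 TPM. It fell to 1.63 under the alternatives. Ctrl colon 787 (18.03 TPM) held 49.4% of the 12-library sum of Iglv3, but the call held with each library left out. Jchain stood at 222, 737, and 236 TPM for Ctrl colons and 581, 364, and 205 TPM for Y/T KO colons. Its bladder values were 76.1, 242, and 66.4 TPM for Ctrl mice and 42.0, 143, and 179 TPM for Y/T KO mice. Ctrl bladder 785 overlapped the colon range, and the log2 difference was 1.99 (SE 0.50, limma, Benjamini-Hochberg adjusted p = 0.00601). It was 2.52 without the 3 libraries with prostate genes, also called.

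Over the whole set, 142 of 192 genes were higher in colon and 6 higher in bladder at an adjusted p under 0.05, beside 31.2% and 31.1% of all 19773 genes tested. Because 100 of the 192 genes reached the level of the selection in colon libraries alone and 1 in bladder libraries alone, these counts are in part fixed by the selection and nothing is read from them. Of the 87 genes that reached it in each tissue separately, 56 were higher in colon and 5 in bladder, with a median log2 difference of 2.87. The 142 comprised 75 Ighv genes, 60 Igkv genes, Iglv3, Igha, Ighg1, Ighg2b, Igkc, Iglc2, and Jchain. The 6 were Ighm, Ighv11-1, Ighv11-2, Ighv12-3, Igkv14-126, and Igkv1-88.

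Named for the size of their tissue difference, 5 variable genes were nearly confined to colon. Igkv12-41 was at 17.8 to 42.5 TPM in the 6 colon libraries and listed at 0 in 4 bladder libraries, with 0.325 and 0.938 TPM in the others. Igkv6-25 was at 4.26 to 35.3 TPM in colon and listed at 0 in all 6 bladder libraries. Ighv5-12 was at 10.2 to 28.9 TPM in colon and at most 0.399 TPM in bladder. Igkv3-12 (5.81 to 20.9 TPM in colon, at most 0.656 TPM in bladder) and Ighv14-2 (14.3 to 28.5 TPM, at most 1.73 TPM) behaved alike. As the 5 were picked by this difference, their separation is a description and no test or fold is given.

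**Figure D2:**
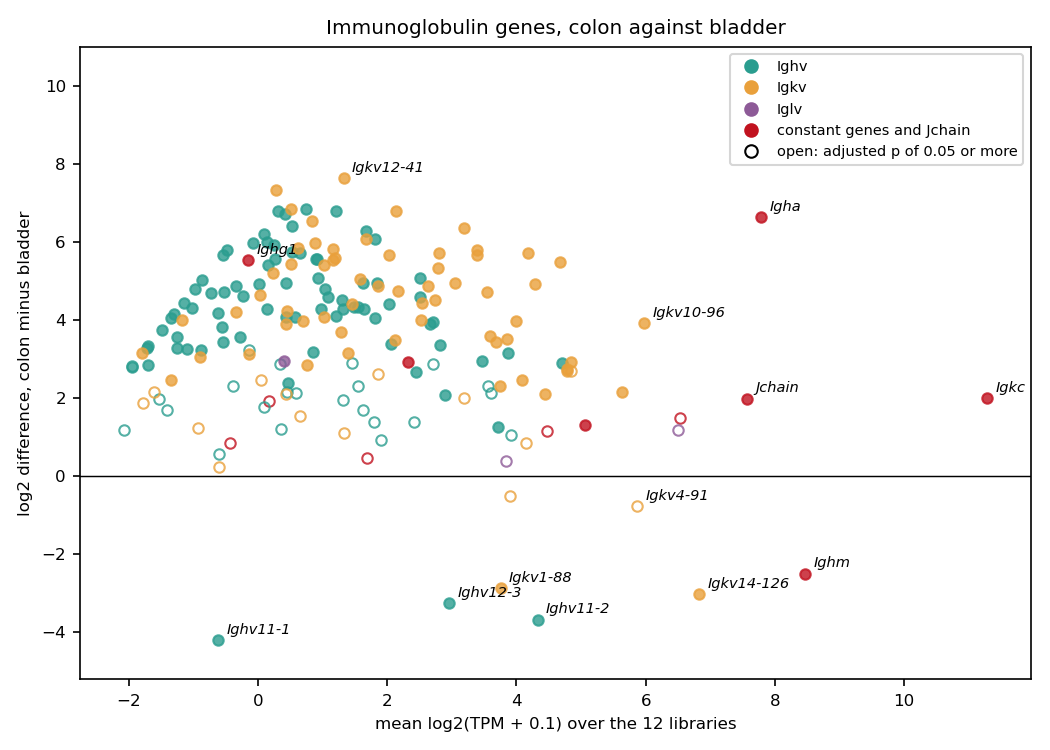
Log2 difference between colon and bladder (colon minus bladder, y axis) against the mean log2(TPM + 0.1) over 12 libraries (x axis) for the 192 genes, colored by class, with open circles for an adjusted p of 0.05 or more. Igha (6.65) lies far above 0, and Ighm (-2.49), Ighv11-2 (-3.68), Ighv12-3 (-3.24), Igkv14-126 (-3.02), and Igkv1-88 (-2.87) lie below it.

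Variable genes higher in bladder included both members of a known heavy and light chain pair. As background, Ighv11-2 with Igkv14-126, and Ighv12-3 with Igkv4-91, are pairs used recurrently by B-1 cells, a lineage of B cells found in body cavities, whose antibodies bind phosphatidylcholine. The sequences of these 4 genes are shown because Ighv11-2 was the most abundant Ighv gene in 3 of the 6 bladders and Igkv14-126 the most abundant Igkv gene in 5, and because Ighv12-3 and Igkv4-91 form the other pair. Each is the 3′ end of the coding part of the variable exon (GENCODE M21, GRCm38, read 5′ to 3′ on the coding strand), and capitals mark the codon of the conserved cysteine, after which the joined segment begins a few codons downstream. The stretches shown lie at chr12:114048241-114048540 (Ighv11-2, minus strand), chr6:67896345-67896642 (Igkv14-126, plus strand), chr12:114366521-114366820 (Ighv12-3, minus strand), and chr6:68768555-68768854 (Igkv4-91, minus strand).
Ighv11-2: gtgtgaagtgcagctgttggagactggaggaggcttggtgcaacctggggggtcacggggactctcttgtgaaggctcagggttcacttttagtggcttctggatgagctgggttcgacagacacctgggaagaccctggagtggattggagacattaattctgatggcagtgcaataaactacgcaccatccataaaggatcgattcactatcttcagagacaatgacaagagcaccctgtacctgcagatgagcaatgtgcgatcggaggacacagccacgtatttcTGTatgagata
Igkv14-126: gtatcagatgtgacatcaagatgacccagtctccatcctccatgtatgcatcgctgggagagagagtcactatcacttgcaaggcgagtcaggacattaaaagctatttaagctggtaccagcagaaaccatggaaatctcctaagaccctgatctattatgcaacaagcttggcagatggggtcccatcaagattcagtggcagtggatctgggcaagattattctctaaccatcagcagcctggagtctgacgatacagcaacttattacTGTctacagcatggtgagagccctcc
Ighv12-3: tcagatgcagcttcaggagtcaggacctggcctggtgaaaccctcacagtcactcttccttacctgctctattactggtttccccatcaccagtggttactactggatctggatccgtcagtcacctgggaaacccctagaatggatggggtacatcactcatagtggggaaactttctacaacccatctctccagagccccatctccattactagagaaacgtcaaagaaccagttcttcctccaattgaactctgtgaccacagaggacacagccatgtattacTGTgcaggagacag
Igkv4-91: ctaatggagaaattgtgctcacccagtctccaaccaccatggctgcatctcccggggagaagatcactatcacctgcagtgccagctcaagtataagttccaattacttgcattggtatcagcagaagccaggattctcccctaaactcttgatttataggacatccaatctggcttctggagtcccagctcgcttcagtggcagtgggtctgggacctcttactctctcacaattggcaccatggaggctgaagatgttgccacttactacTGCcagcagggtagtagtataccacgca

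Ighv11-2 was at 26.6, 25.3, and 5.58 TPM for Ctrl colons and 6.96, 0, and 6.78 TPM for Y/T KO colons. In bladder it was at 67.6, 181, and 72.9 TPM for Ctrl mice and 114, 43.3, and 50.8 TPM for Y/T KO mice. All bladder values lay above all colon values, a log2 difference of -3.68 (SE 1.04, limma, Benjamini-Hochberg adjusted p = 0.0112) that lost the call without the 3 libraries with prostate genes (-4.20, adjusted p = 0.0582). Its partner Igkv14-126 was at 143, 104, and 84.3 TPM for Ctrl colons and 44.6, 1.55, and 24.7 TPM for Y/T KO colons, against 305, 759, and 313 TPM for Ctrl bladders and 466, 204, and 286 TPM for Y/T KO bladders. Again the tissues did not overlap (log2 difference -3.02, SE 0.72, limma, Benjamini-Hochberg adjusted p = 0.00449). Without the 3 libraries the difference was -3.43 (adjusted p = 0.0288). The coding sequence of Ighv11-1 differs from that of Ighv11-2 in 4 of 353 bases. Ighv11-1 was at 0 in 2 of the 3 Ctrl colon libraries and in all Y/T KO colon libraries. In bladder it was at 0 to 12.6 TPM. It met the limit of the selection through bladder alone, so no fold or test is given. Reads of so similar a pair may be divided between them in either direction, so the Ighv11-1 values are uncertain.

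The other pair showed less separation. Ighv12-3 was at 13.4, 7.34, and 0 TPM for Ctrl colons, 9.77, 0.981, and 1.37 TPM for Y/T KO colons, 12.6, 97.2, and 36.5 TPM for Ctrl bladders, and 19.2, 43.6, and 7.72 TPM for Y/T KO bladders. The tissues overlapped and the log2 difference of -3.24 (SE 1.24, limma, Benjamini-Hochberg adjusted p = 0.0432) was lost in 6 of 12 fits that left out a library (Y/T KO colon 783 or 780, Ctrl bladder 785 or 788, Y/T KO bladder 782 or 783; adjusted p from 0.0585 to 0.0926) and without the 3 libraries with prostate genes (adjusted p = 0.118). Igkv4-91, named here as the partner of Ighv12-3 after its values were seen, did not pass (log2 difference -0.76, limma, Benjamini-Hochberg adjusted p = 0.238). It stood at 55.4, 53.2, and 28.5 TPM for Ctrl colons, 49.7, 21.7, and 51.4 TPM for Y/T KO colons, 33.1, 276, and 93.7 TPM for Ctrl bladders, and 63.4, 158, and 39.0 TPM for Y/T KO bladders. Igkv1-88 was higher in bladder (log2 difference -2.87, SE 0.75, limma, Benjamini-Hochberg adjusted p = 0.00719), with 0.347 to 15.5 TPM in colon and 9.11 to 187 TPM in bladder, and its call was lost without the 3 libraries (-2.19, adjusted p = 0.109).

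**Figure D3:**
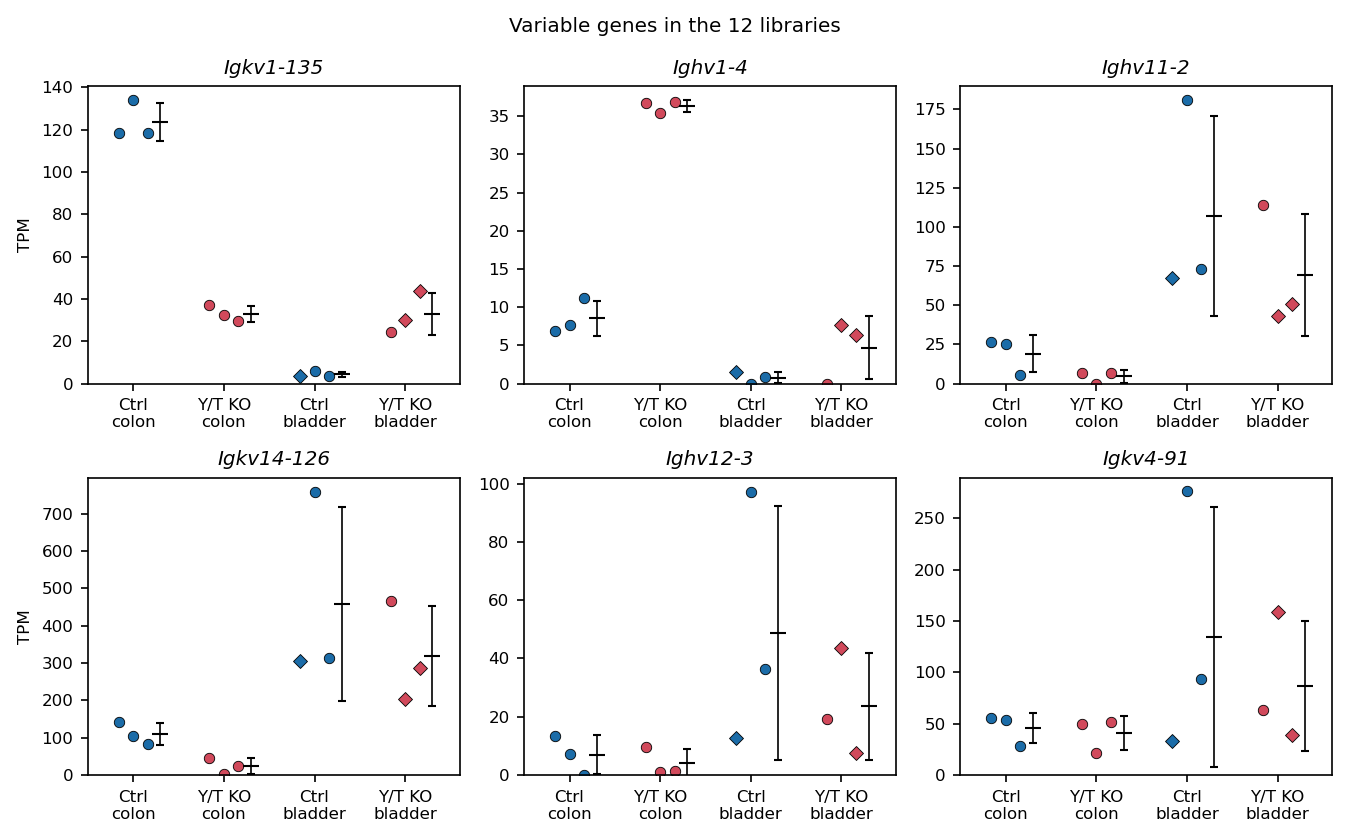
TPM of Igkv1-135, Ighv1-4, Ighv11-2, Igkv14-126, Ighv12-3, and Igkv4-91 in each library by group, with the group mean and SD (n = 3) beside the points and diamonds for the 3 bladder libraries with prostate genes. Igkv14-126 reached 759 TPM in Ctrl bladder 785 and at most 143 TPM in colon.

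As pairs of heavy and of kappa genes, these 4 held larger shares of the variable transcripts in each bladder than in any colon. Ighv11-2 and Ighv12-3 together held 30.4%, 30.9%, and 49.9% of the Ighv TPM in Ctrl bladder and 31.0%, 21.2%, and 14.1% in Y/T KO bladder, but 0.421% to 2.93% in Ctrl colon and 0.096% to 1.30% in Y/T KO colon. Igkv14-126 and Igkv4-91 together held 56.4%, 45.7%, and 59.0% of the Igkv TPM in Ctrl bladder and 43.2%, 27.7%, and 23.6% in Y/T KO bladder, but 3.79% to 6.78% in Ctrl colon and 0.992% to 3.62% in Y/T KO colon. The lowest shares among bladders were those of Y/T KO 783 and 780, which are also libraries with prostate genes, whereas Ctrl 784, the other such library, had shares like those of Ctrl 785 and 788. The part of the prostate genes in these shares was not tested. Shares here and below are of the selected genes only, which leaves out Igkv4-51, at 487 TPM in Ctrl bladder 785. There Igkv14-126 alone held 33.5% of the TPM of the selected Igkv genes and 27.5% of that of all named Igkv genes.

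Fewer variable genes carried the bladder signal than the colon signal. The effective number of genes (the inverse Simpson index of the TPM shares, which equals the number of genes if all were equally abundant) was, for Ighv, 37.8, 36.3, and 46.8 in Ctrl colon and 31.1, 34.4, and 43.6 in Y/T KO colon. In bladder it was 7.07, 8.64, and 6.11 in Ctrl and 6.48, 14.6, and 16.4 in Y/T KO. For Igkv it was 23.5, 25.6, and 32.5 in Ctrl colon, 26.3, 24.8, and 29.8 in Y/T KO colon, 3.68, 4.99, and 4.15 in Ctrl bladder, and 5.14, 10.9, and 9.69 in Y/T KO bladder. All bladder libraries lay below all colon libraries for both classes, and within bladder Y/T KO 783 and 780 were the highest. Bladder also held fewer immunoglobulin transcripts, and the part of this in the index was not tested. Genes in the selection had to be expressed in either tissue, and with all 362 named genes no group mean moved by more than the spread between its mice.

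By gene family, Ighv1, to which 54 of the 101 Ighv genes belong, held 37.6% ± 10.3 (SD, n = 3) of Ighv TPM in Ctrl colon and 41.4% ± 8.82 in Y/T KO colon. In bladder it held 23.1% ± 16.4 in Ctrl and 23.5% ± 11.3 in Y/T KO, with 40.8% in Ctrl 785 and 36.3% in Y/T KO 782, so that the tissues overlapped. Ighv11 held 27.8% ± 6.24 in Ctrl bladder and 17.6% ± 9.54 in Y/T KO bladder, against 1.33% ± 0.820 and 0.445% ± 0.407 in Ctrl and Y/T KO colon. Among kappa families, Igkv6 held 18% ± 1.60 in Ctrl colon and 20.5% ± 2.63 in Y/T KO colon but 1.65% ± 0.867 and 3.74% ± 2.98 in the bladders. Igkv14 showed the reverse, with 4.91% ± 1.01 and 3.61% ± 1.38 in colon and 43.7% ± 8.82 and 25.0% ± 11.8 in bladder.

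**Figure D4:**
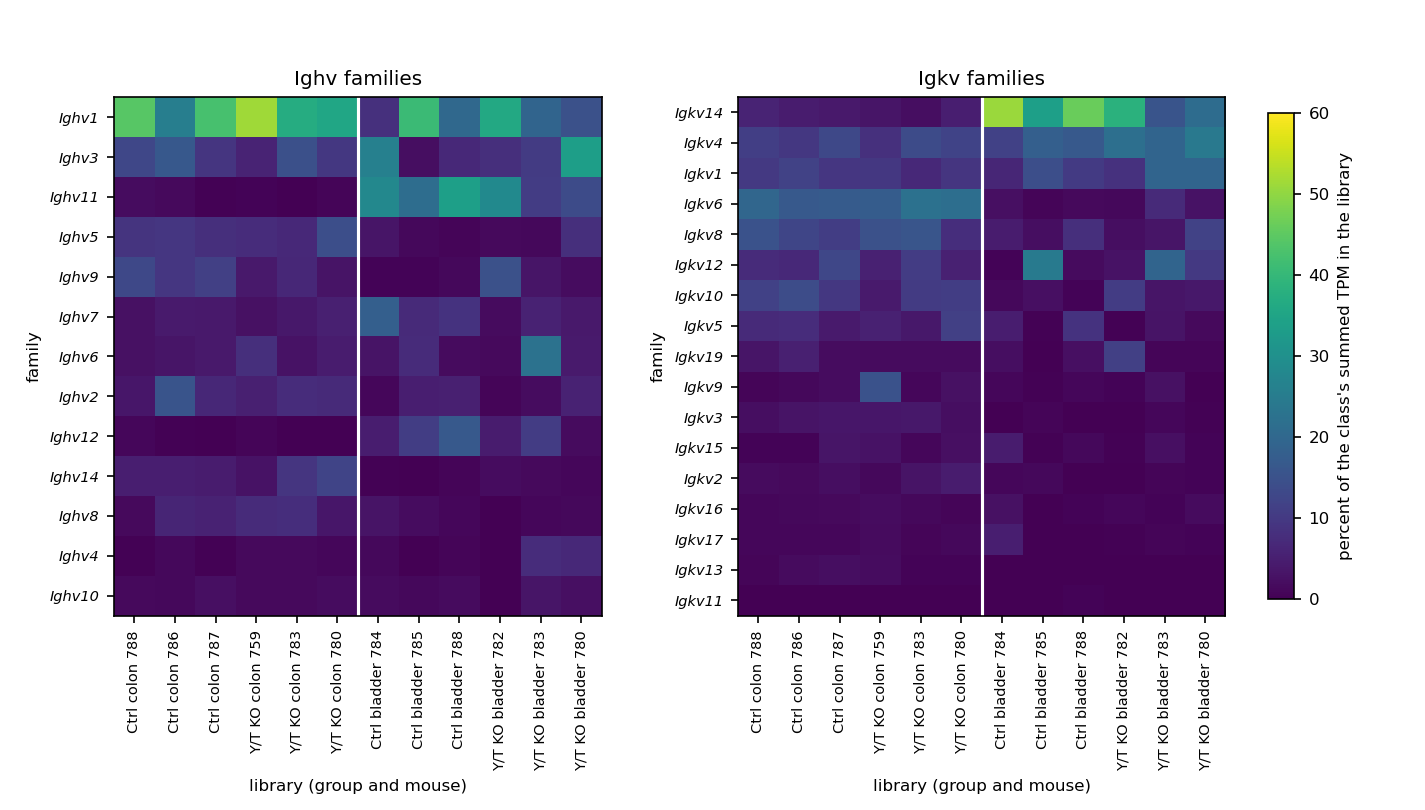
Percent of the Ighv (left) or Igkv (right) TPM of each library held by each variable gene family, as a heat map with families in rows and libraries in columns, and a white line between colon and bladder. Ighv11 and Igkv14 are bright in bladder and dark in colon, and Igkv6 is bright in colon.

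The most abundant variable gene differed from mouse to mouse, and it held a larger share in bladder. In colon the top Ighv gene was Ighv9-3 in Ctrl 788 and 787, Ighv3-6 in Ctrl 786 and Y/T KO 783, Ighv1-53 in Y/T KO 759, and Ighv5-6 in Y/T KO 780, and none held more than 11.9% of the Ighv TPM. The top Igkv gene in colon was Igkv10-96 in the 3 Ctrl colons (10.3%, 11.9%, and 8.26%) and Y/T KO 780 (8.61%), Igkv9-124 in Y/T KO 759 (13.4%), and Igkv6-23 in Y/T KO 783 (9.62%). In bladder Ighv11-2 led in Ctrl 784 (25.6%), Ctrl 788 (33.3%), and Y/T KO 782 (26.6%), Ighv1-55 in Ctrl 785 (21.3%), Ighv6-6 in Y/T KO 783 (16.4%), and Ighv3-5 in Y/T KO 780 (15.6%). Igkv14-126 led the kappa genes in 5 of 6 bladders, with 50.8%, 33.5%, and 45.4% in Ctrl, 38.0% in Y/T KO 782, and 20.8% in Y/T KO 780, while Igkv12-89 led in Y/T KO 783 (17.9%). Igkv12-89 varied widely, with 1.24, 531, and 0 TPM in the 3 Ctrl bladders, 24, 234, and 134 TPM in the Y/T KO bladders, and 0.679 to 59.9 TPM in colon.

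Some variable genes came almost entirely from 1 mouse. Of the 150 variable genes that reached 10 TPM, 17 had more than 50% of their 12-library sum in a single library, 9 in a colon and 8 in a bladder library. Ighv5-16 stood at 29.5 TPM in Ctrl colon 788, 89.2% of its sum, with at most 2.42 TPM elsewhere. Igkv9-124 reached 350 TPM in Y/T KO colon 759 (84.4%) and at most 35.8 TPM elsewhere. The peaks were spread over the groups, with Igkv4-62 (33.0 TPM, 83.1%) and Ighv2-3 (46.8 TPM, 72.6%) highest in Ctrl colon 786, Ighv1-58 (10.3 TPM, 76.0%) in Ctrl colon 787, and Ighv1-61 (28.8 TPM, 73.0%) in Y/T KO bladder 782.

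By the median correlation, variable gene usage was more alike among colons than between a colon and a bladder, also when both came from 1 mouse. For Ighv the ranges overlapped. Across the 101 Ighv genes, Spearman's rho between libraries had a median of 0.538 over 15 pairs of colons (0.380 to 0.738), 0.429 over 15 pairs of bladders (0.338 to 0.535), 0.283 over 33 pairs of a colon and a bladder from different mice (0.0299 to 0.504), and 0.391 over the 3 pairs from the same mouse (0.294 to 0.456). Across the 76 Igkv genes the medians were 0.709, 0.444, 0.426, and 0.419. These coefficients describe genes within libraries and carry no test, and the same-mouse values lay inside the range of the different-mouse values for both classes.

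Deletion of Yap1 and Wwtr1 in smooth muscle went with few immunoglobulin changes that passed the test in colon. Of 190 genes tested, 1 rose, Ighv1-4, and 1 fell, Igkv1-135, beside 0.0571% and 0.08% of all 17500 genes. By sign alone 134 of 190 were lower in Y/T KO (70.5%, beside 49.1% of all genes) and 56 higher (29.5%, beside 50.9%), and the median log2 difference was -0.36, beside 0.01 over all genes. At an unadjusted p under 0.05, 29 were lower and 5 higher (15.3% and 2.63%, beside 4.59% and 5.14% of all genes), and in 26 the Y/T KO values lay wholly below the Ctrl values (13.7%, beside 7.87%) and in 1 wholly above (0.526%, beside 8.24%). Clones shared within a mouse tie these genes together, so they are not independent of one another. The summed level of each Y/T KO colon lay below that of every Ctrl colon, but for Y/T KO 759 only narrowly. That library held 12551 TPM, beside 12719 TPM in the lowest Ctrl library, whereas 783 and 780 were lower (9867 and 9159 TPM). The highest Ighv sum of a Y/T KO colon was 1292 TPM, and no Ctrl colon fell below 1326 TPM. For Igkv the highest Y/T KO sum was 2609 TPM, under the lowest Ctrl sum of 2928 TPM. These sums are not rescaled by size factors and carry no test.

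The constant genes did not pass in colon. Igha differed by -0.17 (SE 0.27), Ighm by -1.25 (SE 0.84), Igkc by -0.16 (SE 0.19), and Jchain by 0.09 (SE 0.52) on the log2 scale, with limma's Benjamini-Hochberg adjusted p at 0.853, 0.664, 0.790, and 0.965. Ighg2b was lower in each Y/T KO colon (9.38, 9.34, and 9.38 TPM, against 23.9, 16.0, and 11.8 TPM in Ctrl), a log2 difference of -0.77 (SE 0.26) that did not pass (limma, Benjamini-Hochberg adjusted p = 0.445). Y/T KO colon 783 held the least Ighm of any library (23.2 TPM), no Ighv11-2, and 1.55 TPM of Igkv14-126.

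Ighv1-4 (chromosome 12) was at 6.84, 7.67, and 11.2 TPM for Ctrl colons and 36.7, 35.5, and 36.8 TPM for Y/T KO colons, with no overlap (log2 difference 2.14, SE 0.22, limma, Benjamini-Hochberg adjusted p = 0.0329). In bladder it was at 1.55, 0, and 0.795 TPM for Ctrl mice and 0, 7.70, and 6.35 TPM for Y/T KO mice. The call held without Ctrl colon 787 (adjusted p = 0.0142) and without Y/T KO colon 759 (0.0381), and was lost without Ctrl colon 788 (adjusted p = 0.0559), Ctrl colon 786 (0.101), Y/T KO colon 783 (0.110), or Y/T KO colon 780 (0.117). It was also lost with no filter on low values (0.0713) and with all 12 libraries in a single fit (0.602), while the log2 difference stayed between 2.02 and 2.38 under every alternative. Its nearest relative, Ighv1-7, is 96.9% identical in the coding sequence. Ighv1-7 was at 5.49 to 8.28 TPM in Ctrl colon and 3.86 to 15.7 TPM in Y/T KO colon. Reads may be divided between the pair.

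In bladder 1 gene of 108 tested rose in Y/T KO, Igkv1-135, beside 0.0823% of all 18237 genes, and 0 fell by limma, beside 0.219%. At an unadjusted p under 0.05, 10 were higher and 4 lower (9.26% and 3.70%, beside 6.64% and 8.2% of all genes). The groups did not overlap in 8 genes that were higher and 4 that were lower (7.41% and 3.70%, beside 10.6% and 11.4%). The median log2 difference of 0.42 became -0.10 without the 3 libraries with prostate genes, when 49 genes were tested in 2 Ctrl libraries and 1 Y/T KO library and none was called. It was also 0.02 without Y/T KO 783, 1.14 without Y/T KO 782, and 0.27 without Ctrl 788. Igha was higher in each Y/T KO bladder than in any Ctrl bladder (25.5, 41.8, and 81.1 TPM, against 10.4, 13.2, and 16.8 TPM), a log2 difference of 1.74 (SE 0.42) that did not pass (limma, Benjamini-Hochberg adjusted p = 0.170). Without the 3 libraries the Igha difference was 0.75 (adjusted p = 0.581), and the 2 highest Igha values belong to libraries with prostate genes, in which Pigr was also high (198, 188, and 528 TPM, against 9.0, 9.98, and 9.23 TPM in the others). Their part in the Igha difference was not tested. Ighm (0.29, SE 0.51), Igkc (0.29, SE 0.55), and Jchain (-0.06, SE 0.74) did not pass either, with adjusted p of 0.827, 0.838, and 0.978. Without the 3 libraries these differences were -0.23, -0.31, and -1.62 and did not pass.

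Ighv1-26, named after its values were seen, had 1.45, 10.4, and 5.27 TPM for Ctrl bladders and was listed at 0 in all 3 Y/T KO bladders, and it did not pass (limma, Benjamini-Hochberg adjusted p = 0.0509). Without the 3 libraries with prostate genes too few libraries were left above the limit on low values for it to be tested. In colon it ranged from 6.13 to 41.5 TPM in Ctrl and from 1.35 to 36.3 TPM in Y/T KO, with overlap.

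Igkv1-135, a kappa variable gene at chr6:67609713-67610508 (plus strand, GRCm38), was the single gene called in both tissues, and in opposite directions. The Ctrl colons held 119, 134, and 118 TPM of it and the Y/T KO colons 36.9, 32.4, and 29.5 TPM. The Ctrl bladders held 3.55, 5.74, and 3.72 TPM and the Y/T KO bladders 24.5, 30.2, and 43.7 TPM. The means were thus 124 ± 9.08 (SD, n = 3) and 32.9 ± 3.77 TPM in colon, and 4.34 ± 1.22 and 32.8 ± 9.83 TPM in bladder, so that the tissues differed in Ctrl mice and lay together in Y/T KO mice. The log2 difference between Y/T KO and Ctrl was -1.87 in colon (SE 0.13, limma, Benjamini-Hochberg adjusted p = 0.00458) and 2.88 in bladder (SE 0.28, adjusted p = 0.0178). The interaction of genotype and tissue was -4.77 (SE 0.31, limma, Benjamini-Hochberg adjusted p = 7.36e-05), the single interaction called in that direction among 192 genes (beside 0.0253% of all 19773 genes). In the other direction 0 were called by limma, beside 0.0354%, and 5 had an unadjusted p under 0.05 (2.60%, beside 6.43% of all genes), as had 22 in the direction of Igkv1-135 (11.5%, beside 5.45%).

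The colon difference of Igkv1-135 was called in all 6 fits that left out a colon library (adjusted p from 0.00354 to 0.0498), and the interaction in all 21 alternatives (adjusted p from 3.28e-05 to 0.00187). In bladder the log2 difference stayed between 2.66 and 3.10 with a library left out, but the call was lost without Ctrl 784 (adjusted p = 0.0695), Ctrl 785 (0.0607), Ctrl 788 (0.103), Y/T KO 783 (0.0879), or Y/T KO 780 (0.0528). Without the 3 libraries with prostate genes the bladder difference was 2.36 (limma, Benjamini-Hochberg adjusted p = 0.331) and the interaction -4.24 (adjusted p = 0.00187). With a term for those libraries the bladder difference was 2.83 (adjusted p = 0.0477). A single gene could not go below p = 0.1 in a two-sided exact permutation test with groups of 3, and the limma values draw on the spread of all genes.

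The closest relative of Igkv1-135 is Igkv1-133, and both sequences are shown because reads of the pair can be told apart only where they differ. The windows of 300 bases from the 3′ end of the variable exon lie at chr6:67610209-67610508 and chr6:67725362-67725661 (plus strand, GRCm38, GENCODE M21), and capitals mark the 11 differing bases.
Igkv1-135: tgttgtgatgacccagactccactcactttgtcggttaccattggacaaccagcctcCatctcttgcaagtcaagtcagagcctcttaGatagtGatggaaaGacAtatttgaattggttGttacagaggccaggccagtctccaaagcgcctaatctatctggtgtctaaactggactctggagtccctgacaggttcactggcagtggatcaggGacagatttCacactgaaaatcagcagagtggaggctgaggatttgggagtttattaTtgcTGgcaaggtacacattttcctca
Igkv1-133: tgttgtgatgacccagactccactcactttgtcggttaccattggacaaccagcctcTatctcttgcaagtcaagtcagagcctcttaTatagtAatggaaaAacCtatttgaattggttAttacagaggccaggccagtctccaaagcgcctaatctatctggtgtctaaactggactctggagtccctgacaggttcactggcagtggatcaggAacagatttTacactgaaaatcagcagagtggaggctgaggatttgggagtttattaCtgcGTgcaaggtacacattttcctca
Over the 362 bases compared, the whole coding sequences were 96.7% identical. Igkv1-133 was at 2.46, 2.09, and 0.235 TPM for Ctrl colons, 0, 1.06, and 2.10 TPM for Y/T KO colons, and at most 0.459 TPM in bladder, so that it held little of the signal of the pair in any library.

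**Figure D5:**
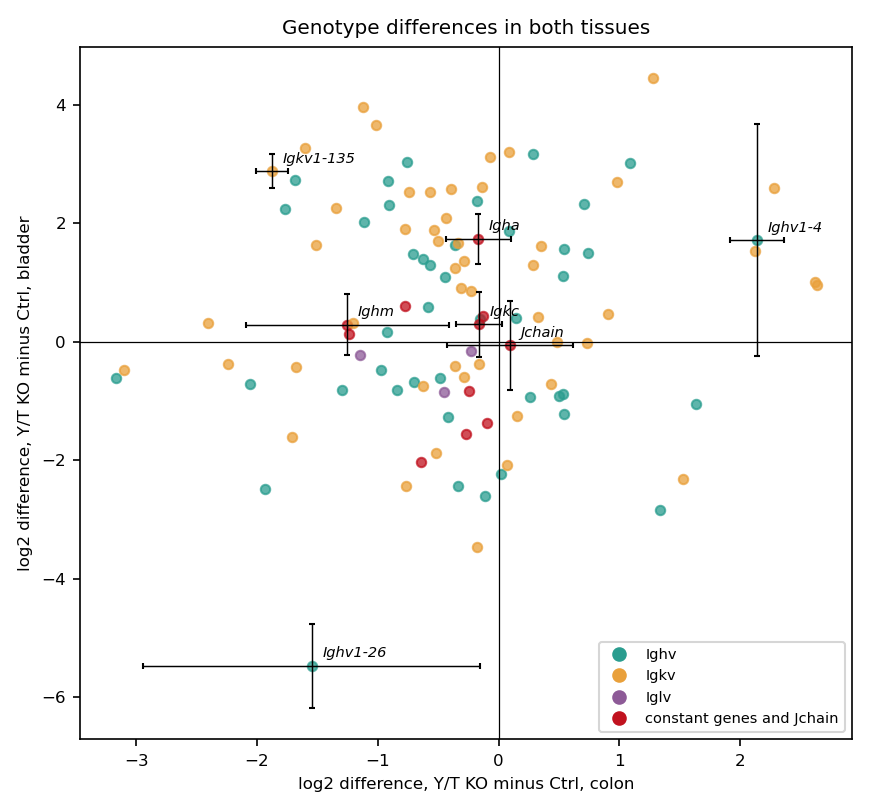
Log2 difference between Y/T KO and Ctrl in colon (x axis) and bladder (y axis) for the 107 genes tested in both tissues, with bars of 1 SE on the labelled genes. Igkv1-135 lies at -1.87 and 2.88 with short bars, and Ighv1-4 lies at 2.14 in colon.

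Genes of B cells and of antibody transport were examined beside the immunoglobulin genes. None of the B cell (12 tested in each tissue), plasma cell (17 in colon, 16 in bladder), recombination (5 and 4), antibody transport and receptor (8 and 9), or recruitment and survival (17 and 15) genes was called between genotypes by limma in either tissue. At an unadjusted p under 0.05, 0 B cell genes were higher and 2 lower in colon of Y/T KO mice, and 3 plasma cell genes were higher and 0 lower, beside 5.14% and 4.59% of all genes. The same counts were 0 and 0 for recombination genes, 3 and 1 for transport and receptor genes, and 3 and 2 for recruitment genes in colon. In bladder they were 0 and 1, 2 and 2, 0 and 1, 0 and 1, and 1 and 2 for the 5 lists in that order, beside 6.64% and 8.2% of all genes. None of these genes passed the adjustment, and nothing is read from the counts. Lists of other cells had no called gene either, but at that p 4 T cell and 3 macrophage genes were higher and 5 of 8 smooth muscle genes lower in Y/T KO colon, and 5 smooth muscle genes lower in Y/T KO bladder. Mzb1, a chaperone of antibody-secreting cells, was at 13.3, 13.5, and 15.5 TPM for Ctrl colons and 28.2, 22.9, and 45.9 TPM for Y/T KO colons, without overlap, whereas no heavy constant gene was higher by sign there. Other listed genes without overlap between the genotypes in colon included Pigr, which was lower after deletion (1428 to 1738 TPM, Ctrl 2076 to 2163 TPM). Madcam1 (5.17 to 5.46 TPM, Ctrl 1.58 to 2.56 TPM) and Ccr10 (1.16 to 1.37 TPM, Ctrl 0.483 to 0.632 TPM) were higher. None of these was called. Cd79a, the signaling chain of the B cell receptor, was at 2.87, 5.55, and 7.47 TPM for Ctrl colons and 3.67, 1.89, and 3.37 TPM for Y/T KO colons.

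Between tissues, 31.2% of all genes were higher and 31.1% lower in colon, which the counts of these lists are set beside. Of 17 plasma cell genes 7 were higher in colon and 2 lower, and by sign alone 11 and 6. Among the 7 were Cd38 (2.97 on the log2 scale), Ccr10 (2.62, a homing receptor of IgA plasma cells), Mzb1 (1.42), Pou2af1 (1.37), and Xbp1 (0.55, a transcription factor of secretory cells). The 2 lower were Eaf2 (-1.18) and Slamf7 (-1.25), a surface receptor of plasma cells and other leukocytes. Which cells held these transcripts was not tested. Of 13 B cell genes, 4 were higher (Cd79a 0.93, Cd79b 0.80) and 3 lower (Ebf1 -2.01, which stromal cells also express), and Ms4a1, the gene of a B cell surface protein, did not pass (0.03). Fcrla and Cd37, also of this list, were lower in each colon than in any bladder. Fcrla was at 0.847 to 1.64 TPM in colon and 1.796 to 3.598 TPM in bladder. Cd37 was at 2.34 to 7.75 TPM in colon and 8.13 to 13.9 TPM in bladder. Among antibody transport and receptor genes, Pigr was higher in colon (1428 to 2163 TPM, log2 difference 5.46, limma, Benjamini-Hochberg adjusted p = 0.00119), while 7 of 9 were lower, among them Fcamr (-2.66), a receptor of IgA and IgM, and Fcgrt (-1.18), the neonatal Fc receptor. Of 18 recruitment genes 4 were higher and 4 lower, among the lower Cxcl12 (-1.03). The higher were led by Ccl28 (7.39), a chemokine for IgA plasma cells at 64.6 to 141 TPM in colon and 0.312 to 0.683 TPM in bladder. Madcam1 (5.15), the endothelial ligand for gut homing, was at 1.58 to 5.46 TPM in colon and listed at 0 in all 6 bladder libraries. Ccr10 was at 0.632, 0.524, and 0.483 TPM in Ctrl colon, 1.16, 1.37, and 1.37 TPM in Y/T KO colon, and at most 0.263 TPM in bladder. The sizes given for Madcam1 and Ccr10 therefore depend on the added 0.1 TPM. Of 5 recombination and switching genes 3 were higher in colon, among them Ung (2.14), but Rag1 was listed at 0 in all libraries. The T cell list had 2 of 9 genes higher in colon and the macrophage list 8 of 8 lower. The plasma cell and recruitment counts were the same without the 3 libraries with prostate genes, but 0 B cell genes were higher and 1 lower, 1 of 5 recombination genes was higher, 1 of 8 transport and receptor genes was higher and 4 lower, and 1 T cell gene was higher. The colon epithelium (7 of 7 higher), urothelium (6 of 6 lower), and smooth muscle (8 of 8 lower) lists separated the tissues.

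Jchain levels were also set beside those of all 19773 genes tested across the 12 libraries, as a description. Outside the immunoglobulin genes, the highest Pearson's r of log2 values with Jchain were those of Ugcg (0.960, glucosylceramide synthase), Cstf2 (0.925, an mRNA 3′ end processing factor), Gm10184 (0.920), Fmn1 (0.909, a formin), and Mars2 (0.897, a mitochondrial methionyl tRNA synthetase). Within the set, Igkv3-7 (0.908), Ighv1-21 (0.877), Igkv6-14 (0.873), Ighv1-9 (0.868), and Iglc2 (0.860) followed Jchain most closely. The libraries share tissue and genotype, so such coefficients hold the tissue difference as well.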

How the data were processed

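Polyadenylated RNA of whole distal colon and bladder was sequenced as stranded libraries. The authors aligned reads with HISAT2 and estimated gene abundance with StringTie on GRCm38 (versions not given in the sources used here). The deposited tables hold, per gene, TPM (length-divided abundance scaled to a fixed library total), FPKM (fragments divided by length and by library size), and coverage (mean reads over each base), all made by the authors. They hold no read counts, so the DESeq2 test of the study was not applied. Aligned sequence, from the ratio of coverage to FPKM, was 2.80 to 3.94 gigabases per library, and 1 TPM equalled a coverage of 1.28 to 2.01, so a low variable gene rests on few reads. Counting error was not estimated, and p-values measure the spread between mice. Variable gene rows follow germline exons: reads across rearranged junctions, mutated reads, and reads shared by near-identical genes may be lost or misassigned. Symbols, IDs, and coordinates matched GENCODE M21 for all 192 genes (168 annotated as variable genes, 12 as variable pseudogenes).

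Log2(TPM divided by median-of-ratios size factors + 0.1) was fitted with limma 3.58.1 in R 4.3.3 (trend and robust, two-sided) over all genes that 3 or more libraries of the fit held at 0.5 TPM or more, and Benjamini-Hochberg adjustment ran over all genes. Colon and bladder were fitted separately for genotype and together for tissue and interaction. Mouse numbers in the labels pair 3 mice across tissues, and limma's duplicateCorrelation gave a consensus correlation of 0.0514. In simulated data, 200 genes drawn at random from all genes tested were changed. Of genes changed by a log2 of 2, 76% were recovered in colon, 75% in bladder, and 58% for the interaction. Of those changed by a log2 of 1, 13.5%, 36.5%, and 12% were recovered, so that differences of that size are mostly missed. These shares hold for genes at large with 200 changed, and recovery among the immunoglobulin genes by themselves was not estimated. Sums, shares, and correlations were computed with Python 3.11.15 and pandas 2.3.3, with matplotlib 3.10.9 for plots. Genes and lists were chosen with earlier results of these data known. Named genes are the constant genes and Jchain, the 3 most abundant variable genes of each class, up to 5 called genes per comparison and direction, the 6 variable genes most confined to 1 library, called list genes, Yap1 and Wwtr1, and the 5 genes most like Jchain. Others are named as chosen after their values were seen, which holds also for the prostate and pancreas genes and the leading gene of each library. Alternatives were other pseudocounts and filters, unscaled TPM or FPKM, no trend and robust options, a single fit, the mouse block, each library left out, and, chosen after seeing the data, leaving out or modelling the 3 bladder libraries with prostate genes.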

Additional observations from a re-analysis of the deposited data

Results flagged for a closer look

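The genotype difference of Igkv1-135 was opposite in the tissues. Y/T KO minus Ctrl was -1.87 in colon and 2.88 in bladder on the log2 scale, and the test of the difference between tissues, the interaction term, gave -4.77 (SE 0.31, limma, Benjamini-Hochberg adjusted p = 7.36e-05). All 3 Y/T KO colons lay below the 3 Ctrl colons, and all 3 Y/T KO bladders above the 3 Ctrl bladders.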

How the results depend on the processing

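Of 33 gene comparisons rerun under the alternatives, 30 did not change direction. Without the 3 bladder libraries with prostate genes the bladder genotype differences of Ighm (-0.23) and Igkc (-0.31) did, and with a bladder library left out they were -0.0552 to 0.89 for Ighm, -0.11 to 0.95 for Igkc, and -0.46 to 0.61 for Jchain, none called. The median bladder difference of 0.42 became -0.10 without those 3. In colon, with no filter on low values or with all 12 libraries in a single fit, 1 gene was called and 0 were higher. With a library left out, 1 to 6 genes were called there, 0 to 1 higher and 1 to 5 lower, with 6 without Y/T KO 759. In bladder 0 to 1 was called with a library left out (Ighv1-55 in place of Igkv1-135 without Ctrl 785), all higher, and 0 in total and 0 higher without the 3 libraries with prostate genes. Between tissues, 3 genes in place of 6 were higher in bladder without those libraries, when fewer samples were fitted. The median colon minus bladder difference of 3.90 became 2.75 and 2.26 with pseudocounts of 0.5 and 1 TPM, 3.29 with FPKM, and 3.61 to 4.05 with a library left out. With TPM as deposited, the median of all genes moved from 0.02 to -0.24 and that of the immunoglobulin genes to 3.69. For the interaction, 1 to 3 genes were called with a library left out (0 to 1 higher, 1 to 3 lower), and 4, all lower (Igkv1-135, Ighv1-5, Ighv1-61, and Ighv14-3), without the 3 libraries. In that last fit library 782 alone stood for Y/T KO bladder. Ighv1-5 (97.3 TPM, 61.1% of its 12-library sum) and Ighv1-61 (28.8 TPM, 72.95%) had their peaks in that library. The calls of these genes therefore rest on that mouse. The interaction median of -1.02 became -0.55 with a pseudocount of 1 TPM, -0.0845 without the 3 libraries, and -1.39 to -0.77 with a library left out. Where not given, the cause was not tested.

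The mouse as a replicate block changed no call: 142 genes were higher and 6 lower in colon, 0 and 1 were called for the interaction, and the medians were 3.89 and -1.04. The mean summed TPM of Ctrl colon was 13943 with size factors over 12 libraries, and sums in FPKM were 6337 in Ctrl colon, 5436 in Y/T KO colon, and 2134 in Y/T KO bladder, in another unit. Effective numbers of variable genes over all 362 named genes stayed within the spread between mice. Values under about 1 TPM are limited by depth.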

Other observations

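Of the 170 immunoglobulin genes that did not reach the level of the selection, 4 still reached 10 TPM in a library. Igkv4-51 stood at 487 TPM in Ctrl bladder 785, more than any Igkv gene there except Igkv14-126 (759 TPM) and Igkv12-89 (531 TPM), and at no more than 0.623 TPM in any other library. Its coding sequence is 96.4% identical to that of Igkv4-58, which reached 149 TPM in Y/T KO bladder 780 and was listed at 0.102 TPM in Ctrl bladder 785. The others were Igkv12-38 (20.9 TPM in Ctrl colon 786), Igkv4-92 (18 TPM in Ctrl bladder 784), and Ighv3-4 (13.2 TPM in Ctrl colon 787). All 4 were chosen after their values were seen.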
